A study of Rattus norvegicus with 3 samples.

Results

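The genes described here mark the mural cells of brain vessels, which are pericytes and vascular smooth muscle cells. They are the 10 genes Pdgfrb, Rgs5, Notch3, Vtn, Anpep, Des, Acta2, Tagln, Myh11 and Cnn1, each matched by its symbol to 1 row among the 30957 genes listed in every file. The first 6 are called pericyte genes in the text and the last 4 contractile genes, although Des and Notch3 are used by both cell types. The data are mRNA-seq profiles of motor cortex, taken from 3 male rats of the Sprague-Dawley strain after cerebral ischemia and reperfusion, in which the blood supply of the brain is cut and then restored. The animals carry the numbers 19, 35 and 70 and the time label 8 weeks, which the labels do not define further, and they form 1 group with no control animals analysed here. The sources used here do not say how the vessels were closed, on which side and for how long.

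Pericytes sit on the capillary wall, share a basement membrane with the endothelium and help to maintain the blood-brain barrier. Smooth muscle cells wrap arteries and arterioles and set their width by contraction. Endothelial cells secrete PDGF-B, which recruits mural cells through the receptor PDGFR-beta, and Notch ligands on the endothelium act on NOTCH3 in the mural cell. Smooth muscle tone depends on an alpha-actin and a myosin heavy chain of its own, which are switched on by serum response factor together with myocardin at a DNA element called the CArG box.

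Levels are given as FPKM, the fragments of a gene divided by its length and by the sequencing depth, so that levels can be set side by side between genes. Low values moved in steps of whole fragments, from which an effective depth of 15560000 fragments in rat 19, 16460000 in rat 35 and 16050000 in rat 70 was read. Differences between rats are on the log2(FPKM + 1) scale, which understates differences of low genes, and a difference of more than 1 on it is called more than 2-fold. With 3 rats of 1 group no test between conditions exists, and an exact permutation test that flips signs over 3 rats (two-sided) could not go below p = 0.25, so the comparisons are descriptions with no p-value. Bulk RNA cannot tell fewer cells of a type from less RNA per cell.

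Rat 35 stood apart from the other rats in other cell types too. The 8 neuronal markers summed to 1390 FPKM in rat 19, 56.2 in rat 35 and 1949 in rat 70. All 8 were lowest in rat 35, with Snap25 at 12.2, Syp at 12.5 and Slc17a7 at 12.2 FPKM there. The share of all genes lowest in rat 35 was not computed. The 8 markers of microglia and macrophages summed to 801, 5957 and 592 FPKM in rats 19, 35 and 70. All 8 were highest in rat 35, against 45.4% of all genes averaging at least 1 FPKM. Spp1 was at 4161, C1qa at 761 and Cd68 at 468 FPKM there. Results for the mural genes are therefore given with and without that rat. Their part in the mural gene values was not tested.

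Sequence upstream of the start was at hand for 7 of the 10 genes, as the 250 bases before and 50 after the RefSeq gene start in build GRCr8. Printed are the windows of a pair of contractile genes (Acta2, chr1:241172454-241172753, minus strand, and Cnn1, chr8:28908187-28908486, plus strand), of the most abundant pericyte gene (Rgs5, chr13:84380827-84381126, plus strand) and of the gene that differed most between rats (Anpep, chr1:143195052-143195351, minus strand), so that the contractile and pericyte genes can be set beside each other. Capitals mark a CArG box in which at most 1 base of the core of A and T is G or C.
Acta2: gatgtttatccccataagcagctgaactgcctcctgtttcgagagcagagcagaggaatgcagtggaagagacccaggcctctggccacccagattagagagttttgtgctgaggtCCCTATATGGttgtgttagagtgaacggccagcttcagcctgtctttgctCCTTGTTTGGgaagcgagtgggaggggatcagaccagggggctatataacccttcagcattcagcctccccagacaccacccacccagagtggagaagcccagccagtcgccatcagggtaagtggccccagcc
Cnn1: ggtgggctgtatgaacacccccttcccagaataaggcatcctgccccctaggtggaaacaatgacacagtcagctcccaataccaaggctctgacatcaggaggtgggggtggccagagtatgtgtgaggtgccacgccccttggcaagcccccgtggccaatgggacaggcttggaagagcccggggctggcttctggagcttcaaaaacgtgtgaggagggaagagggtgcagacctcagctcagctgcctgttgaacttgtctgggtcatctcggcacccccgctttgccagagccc
Rgs5: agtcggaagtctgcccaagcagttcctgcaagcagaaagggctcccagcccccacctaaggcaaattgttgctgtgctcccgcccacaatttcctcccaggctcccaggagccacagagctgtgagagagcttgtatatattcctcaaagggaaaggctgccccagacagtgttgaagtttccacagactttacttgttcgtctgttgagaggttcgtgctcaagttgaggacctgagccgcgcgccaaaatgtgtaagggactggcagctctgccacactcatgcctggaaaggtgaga
Anpep: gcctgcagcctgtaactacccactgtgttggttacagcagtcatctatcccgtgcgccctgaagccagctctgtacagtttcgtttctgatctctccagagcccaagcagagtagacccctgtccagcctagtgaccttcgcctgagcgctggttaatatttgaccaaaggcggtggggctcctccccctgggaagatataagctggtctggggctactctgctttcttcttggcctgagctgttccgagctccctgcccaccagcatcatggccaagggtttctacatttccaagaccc

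A CArG box with a core of A and T only was in none of the 7 windows, and 1.64% of 33465 rat windows of the same length hold one. With 1 G or C allowed in the core, Acta2 was the 1 gene of the 7 with a match, and 9.42% of all windows have one. Acta2 had a pair of them, CCCTATATGG at 134 to 125 bases and CCTTGTTTGG at 84 to 75 bases before the start. A CArG box keeps its form on the opposite strand, so the search covered both strands. TGGGAA, the core of the motif of RBPJ, the DNA-binding partner of activated Notch receptors, was found on either strand in 5 of the 7 windows, against 25.7% of all windows. Vtn held 5 copies of it, while Notch3, Anpep, Acta2 and Cnn1 held 1 each. Such matches describe the letters of these windows only.

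Pdgfrb encodes the receptor through which PDGF-B holds pericytes on the vessel (ENSRNOG00000018461, chromosome 18, 56364620 to 56406381, plus strand, Rnor 6.0, as are all gene positions of the files). It was at 21.8 FPKM in rat 19, 102 in rat 35 and 18.4 in rat 70 (47.4 ± 47.3, SD, n = 3). Rat 35 was 4.69-fold above rat 19 and 5.54-fold above rat 70, while rats 19 and 70 lay within 1.18-fold of each other. These values rest on 2740, 13586 and 2389 fragments over a recovered length of 8090 bp. The 95% counting interval of rat 35, 100 to 104 FPKM, lay far from those of rats 19 (21.0 to 22.6) and 70 (17.7 to 19.2). Fragments are not all independent molecules, so these exact Poisson intervals cover counting error only.

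Anpep encodes aminopeptidase N, a surface enzyme of brain pericytes that is also made by some fibroblasts and myeloid cells (ENSRNOG00000014610, chromosome 1, 141561334 to 141604273, minus strand). It was at 5.58 FPKM in rat 19, 46.3 in rat 35 and 7.08 in rat 70 (19.6 ± 23.1, SD, n = 3), from 448, 3929 and 586 fragments. Rat 35 was 8.29-fold above rat 19 and 6.54-fold above rat 70. Of the 10 genes it was Anpep, not Pdgfrb, that spread most over the rats, with a highest minus lowest difference of 2.84 (log2) against 2.41 for Pdgfrb. Among all 14134 genes whose mean reached 1 FPKM, 5.65% differed by as much as Anpep and 9.19% by as much as Pdgfrb.

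Rgs5 encodes a regulator of G protein signalling that is a standard pericyte marker of the brain (ENSRNOG00000002730, chromosome 13, 87966758 to 88003035, plus strand). It had the highest mean of the 10, at 60.7 FPKM in rat 19, 137 in rat 35 and 31.5 in rat 70 (76.5 ± 54.7, SD, n = 3). Rat 19 was 1.93-fold above rat 70, a wider gap than the 1.18-fold of Pdgfrb. Des encodes desmin, an intermediate filament protein of muscle cells and pericytes (ENSRNOG00000019810, chromosome 9, 82556573 to 82564294, plus strand). At 5.55 FPKM in rat 19, 14.9 in rat 35 and 3.35 in rat 70 (7.95 ± 6.15, SD, n = 3), it followed the order of Rgs5, and the profiles of this pair over the 3 rats were 0.24 apart (Euclidean distance, log2).

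Notch3 encodes the Notch receptor of arterial smooth muscle and pericytes (ENSRNOG00000004346, chromosome 7, 14138495 to 14189688, minus strand). It was at 6.49 FPKM in rat 19, 15.4 in rat 35 and 6.78 in rat 70 (9.55 ± 5.04, SD, n = 3). Rat 35 was more than 2-fold above both others, while the counting intervals of rats 19 (6.03 to 6.98) and 70 (6.32 to 7.27) overlapped. Vtn encodes vitronectin, an adhesive plasma and matrix protein that brain pericytes also make (ENSRNOG00000010031, chromosome 10, 65767053 to 65771038, plus strand). Its values of 17.9 FPKM in rat 19, 20.9 in rat 35 and 11.7 in rat 70 (16.8 ± 4.71, SD, n = 3) were the most even of the 10 genes, with rat 35 only 1.17-fold above rat 19.

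**Figure D1:**
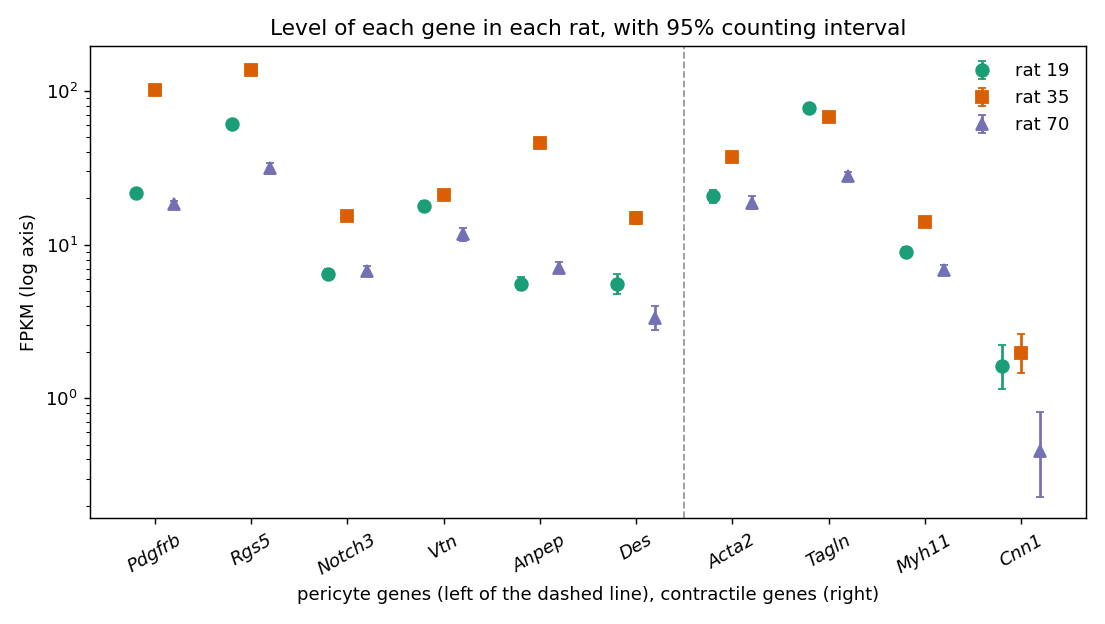
FPKM on a log axis of the 6 pericyte genes and the 4 contractile genes in rats 19 (circles), 35 (squares) and 70 (triangles), with the 95% Poisson counting interval as bars. Rat 35 is highest for 9 of the 10 genes and far above the others for Pdgfrb and Anpep, whereas Tagln is highest in rat 19.

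Among the contractile genes, Acta2 encodes the smooth muscle alpha-actin (ENSRNOG00000058039, chromosome 1, 252537615 to 252550394, minus strand). It was at 20.7 FPKM in rat 19, 37.0 in rat 35 and 18.8 in rat 70 (25.5 ± 10.01, SD, n = 3). Rat 35 was 1.79-fold above rat 19 and 1.97-fold above rat 70, and the counting intervals of rats 19 (18.8 to 22.7) and 70 (17.1 to 20.7) overlapped. Actin genes share coding sequence, so some fragments may have been split between copies or dropped.

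Myh11 encodes the smooth muscle myosin heavy chain (ENSRNOG00000057880, chromosome 10, 764421 to 859184, plus strand). It was at 9.03 FPKM in rat 19, 14.01 in rat 35 and 6.85 in rat 70 (9.96 ± 3.67, SD, n = 3), and its profile was the nearest of the 10 to that of Acta2, 0.19 apart (log2). The FPKM of Myh11 divided by that of Acta2 was 0.437, 0.379 and 0.364 in rats 19, 35 and 70 (0.393 ± 0.039, SD, n = 3). The motor protein gene and the actin gene thus kept nearly the same proportion in each rat.

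Tagln encodes transgelin, an actin-binding protein of smooth muscle and of some activated fibroblasts (ENSRNOG00000017628, chromosome 8, 50222896 to 50231357, minus strand). It was at 78.1 FPKM in rat 19, 67.9 in rat 35 and 27.8 in rat 70 (57.9 ± 26.6, SD, n = 3). This was the 1 gene of the 10 highest in rat 19, and rat 70 was the low animal, 2.81-fold below rat 19. Relative to Acta2 it was 3.78 in rat 19, 1.83 in rat 35 and 1.48 in rat 70. Its position overlaps that of Sidt2 on the same strand by 1019 bp, so fragments of that stretch could be assigned to either gene. Sidt2 ran in the other order, at 21.1 FPKM in rat 19, 35.9 in rat 35 and 43.1 in rat 70.

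Cnn1 encodes calponin, which binds actin in mature smooth muscle (ENSRNOG00000027736, chromosome 8, 23113048 to 23121761, plus strand). It was the lowest of the 10 in every rat, at 1.63 FPKM in rat 19, 1.98 in rat 35 and 0.457 in rat 70 (1.36 ± 0.80, SD, n = 3). Only 38, 49 and 11 fragments stood behind these values, and the counting intervals of rats 19 (1.15 to 2.23) and 35 (1.47 to 2.62) overlapped. That of rat 70 (0.228 to 0.818) lay below both, so the lower value of rat 70 exceeded counting error.

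Ordered by mean FPKM, the genes ran Rgs5, Tagln, Pdgfrb, Acta2, Anpep, Vtn, Myh11, Notch3, Des and Cnn1. Vtn was above Myh11 and Des above Cnn1 in all 3 rats by more than the SD of either gene on the log2 scale. Notch3 was above Des in each rat, but by less than that SD. The other neighbours in this order did not keep the same order in every rat. Anpep changed place most, standing 8th in rat 19, 4th in rat 35 and 6th in rat 70.

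Set against each other within the 10 genes, the pericyte genes spread more over the rats than the contractile genes. Their deviation from the 3-rat mean had a median over 6 genes of -0.31 in rat 19, 1.07 in rat 35 and -0.79 in rat 70 (log2), against 0.07, 0.46 and -0.53 over the 4 contractile genes. The highest minus lowest difference of a gene had a median of 1.98 among pericyte genes, 0.99 among contractile genes and 0.86 over all 14134 genes. The ranges of both groups met, since Vtn (0.79) was below every contractile gene and Tagln (1.46) above Vtn and Notch3 (1.13). Without rat 35, the highest minus lowest deviation was 0.40 for pericyte genes and 0.60 for contractile genes, compared with 1.86 and 0.98 with all rats. Without rat 70 it was 1.22 and 0.38.

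**Figure D2:**
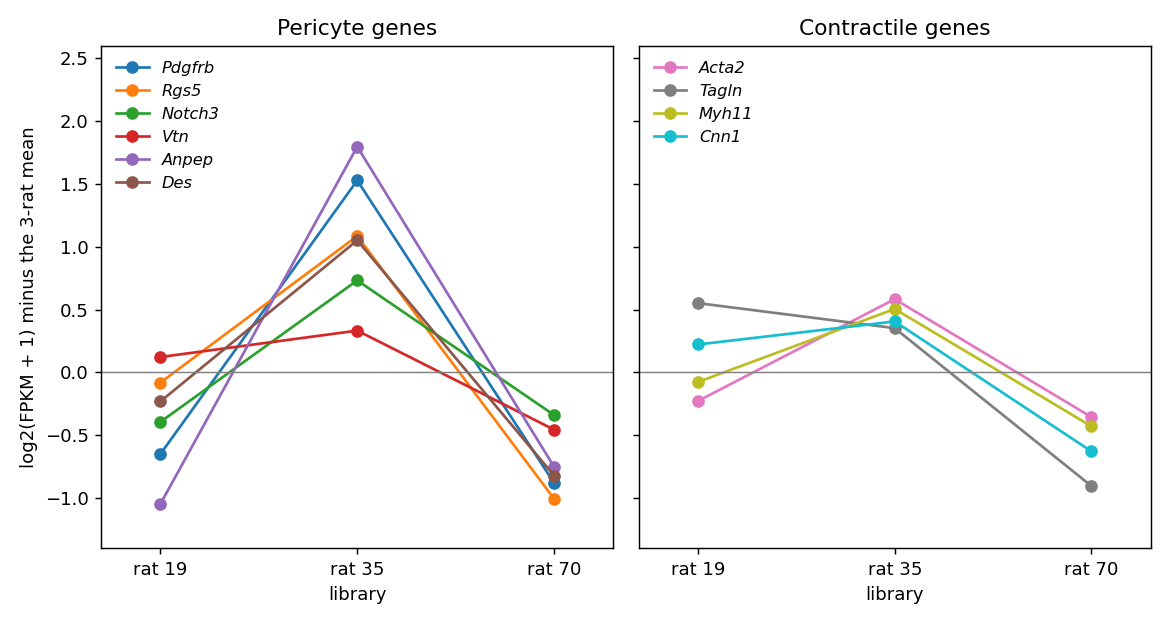
Deviation of each rat from the 3-rat mean of a gene, in log2(FPKM + 1), for 6 pericyte genes (left) and 4 contractile genes (right), 1 line per gene. Pericyte genes peak in rat 35, at up to 1.80 for Anpep, while the contractile genes reach at most 0.58 there, for Acta2.

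Pericyte genes differed more than contractile genes in both pairs of rats that include rat 35. More than 2-fold higher in rat 35 than in rat 19 were 5 of 6 pericyte genes and 0 of 4 contractile genes, against 11.7% of all genes. In the pair of rats 35 and 70 it was 5 of 6 and 2 of 4, against 19.9% of all genes. Rat 19 exceeded rat 70 by more than 2-fold at 0 of 6 pericyte genes and at 1 of 4 contractile genes, which was Tagln, against 6.11% of all genes. The low gene Cnn1 was 3.56-fold higher in FPKM in rat 19 than in rat 70. Its difference on the log2(FPKM + 1) scale was 0.85, so it was not counted. The median difference of rat 35 minus rat 19 was 1.22 for pericyte genes, 0.38 for contractile genes and 0.05 for all genes (log2), and that of rat 35 minus rat 70 was 1.98, 0.99 and 0.14. These pairs of rats share animals, so the counts are not independent of each other.

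Counting all 10 genes, 7 had a highest rat more than 2-fold above the lowest, against 42.5% of all genes. Cnn1 (1.03) lay just past that limit, and Acta2 (0.94) and Myh11 (0.93) just under it. Highest in rat 35 were 9 of the 10, against 45.4% of all genes, and lowest in rat 70 were 8, against 44.2%. Leaving out rat 35 left 1 gene more than 2-fold apart on the log2(FPKM + 1) scale, again Tagln, and leaving out rat 70 left 5. For these pairs of rats the share of all genes more than 2-fold apart in either direction was not computed. Of the summed FPKM of the 10 genes, the pericyte genes took 51.9% in rat 19, 73.6% in rat 35 and 59.4% in rat 70.

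The level of the pericyte genes relative to the contractile genes could not be stated firmly. The median log2(FPKM + 1) of the pericyte genes minus that of the contractile genes was -0.31 in rat 19, 0.43 in rat 35 and -0.30 in rat 70 (-0.06 ± 0.42, SD, n = 3). Within these groups single genes decided the sign: it was negative in all rats without Pdgfrb (-0.98, -0.12 and -0.63 in rats 19, 35 and 70) and positive in all rats when Des was counted with the contractile genes (0.92, 1.57 and 0.69). The greater spread of the pericyte genes depended less on Pdgfrb, since the deviation of rat 35 was 1.05 without it and 0.89 without Pdgfrb and Anpep.

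Rat 35 stood out further for Pdgfrb than for the other pericyte genes except Anpep. The FPKM of Anpep relative to Pdgfrb was 0.256 in rat 19, 0.453 in rat 35 and 0.385 in rat 70. Pdgfrb's FPKM relative to Rgs5 was 0.359 in rat 19, 0.742 in rat 35 and 0.585 in rat 70. Relative to Notch3 it was 3.35, 6.64 and 2.71, and relative to Vtn 1.21, 4.88 and 1.58, so that rat 35 was highest in each of these ratios. The highest minus lowest difference of Pdgfrb exceeded the median of the other 9 genes by 1.28 (log2). Without rat 35 that value was -0.35, and Pdgfrb then differed between rats 19 and 70 by 0.23, the 8th of the 10. Of the 10 genes, the profile of Pdgfrb was nearest to that of Anpep, 0.50 apart, and farthest from that of Tagln, 1.68 apart.

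Among 9714 named genes that averaged at least 5 FPKM, those with a profile nearest to Pdgfrb over the 3 rats were Prcp, Smpdl3a, Bicc1, Col4a1 and Plp2, at distances of 0.015 to 0.047 (log2). The nearest, Prcp, was at 10.7 FPKM in rat 19, 51.3 in rat 35 and 8.97 in rat 70. Col4a1 encodes a collagen chain of the basement membrane and was at 45.9 FPKM in rat 19, 218 in rat 35 and 40.6 in rat 70. Nearest to Rgs5 were Tm6sf1, Smc4, Clec2g, Pld4 and Dlgap5 (0.004 to 0.044), and nearest to Acta2 were Tmed10, Sirt7, Tns2, Tmem87a and Btbd7 (0.007 to 0.027). A profile of 3 points can be matched by many genes: 16 genes lay within 0.1 of Pdgfrb, 26 within 0.1 of Rgs5 and 98 within 0.1 of Acta2. Within 0.1 of Anpep, the gene with the largest spread of the 10, lay only 2. Whether genes with near profiles are made by the same cells was not tested.

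The ligand genes of the PDGF receptors spread less over the rats than Pdgfrb. Pdgfb, the endothelial ligand, had the same order of rats, at 14.03 FPKM in rat 19, 17.6 in rat 35 and 9.30 in rat 70, but a 1.89-fold range against 5.54-fold for its receptor. Pdgfa was at 10.4, 9.16 and 7.80 and Pdgfd at 1.45, 2.10 and 1.60 FPKM in rats 19, 35 and 70. Pdgfc was highest in rat 19, at 10.1 FPKM, with 4.59 in rat 35 and 3.55 in rat 70. The alpha receptor gene Pdgfra, a marker of fibroblasts and of oligodendrocyte precursors, was at 22.9, 152 and 39.1 FPKM, so that like Pdgfrb it was highest in rat 35. Pdgfrb relative to Pdgfra was 0.951 in rat 19, 0.672 in rat 35 and 0.471 in rat 70.

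Genes of Notch signalling in the vessel wall varied less than Notch3 for the most part. Of 8 such genes 5 were highest in rat 35, against 45.4% of all genes, and 2 differed by more than 2-fold over the rats, a smaller share than the 42.5% of all genes. These were the ligand gene Jag1, at 4.97 FPKM in rat 19, 9.91 in rat 35 and 2.33 in rat 70, and Rbpj, at 21.2, 40.7 and 14.1 on the more abundant of its rows. Among target genes of the pathway, Heyl was at 4.50, 6.18 and 3.79, Hes1 at 7.92, 11.4 and 5.26 and Hey2 at 5.07, 4.52 and 3.75 FPKM in rats 19, 35 and 70. Hey1 was lowest in rat 35, at 12.7 in rat 19, 7.12 in rat 35 and 12.7 in rat 70. Notch1 was at 16.8, 19.3 and 11.7, and the endothelial ligand gene Dll4 at 0.972, 1.16 and 2.05.

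Further pericyte markers were mostly highest in rat 35 as well. Of 18 listed, 17 reached a mean FPKM of 1, and of these 15 were highest in rat 35 (45.4% of all genes were), while the 8 that differed by more than 2-fold over the rats were a share near that of all genes (42.5%), with a median range of 0.99 against 0.86 for all genes (log2). Subunit genes of the pericyte potassium channel lay near that median, with Kcnj8 at 3.66 FPKM in rat 19, 6.71 in rat 35 and 3.23 in rat 70 and Abcc9 at 4.45, 8.71 and 3.60. Tbx18, a transcription factor gene of mural cells, was at 7.16, 32.8 and 3.05 FPKM, and its highest minus lowest difference of 3.06 (log2) was larger than that of Anpep or Pdgfrb. Zic1, at 18.1, 79.9 and 36.9, is also expressed by meningeal cells. Ndufa4l2 was at 4.09, 8.25 and 1.19 FPKM, and Mcam, a mural and endothelial adhesion gene, at 22.9, 43.5 and 20.9. The measured genes not highest in rat 35 were Atp13a5 (2.09, 2.79 and 3.04) and Art3 (3.15, 1.98 and 3.30). Both were highest in rat 70, and Art3 was lowest in rat 35.

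Further contractile genes did not share 1 pattern. Of 18 listed, 16 reached a mean FPKM of 1, with 9 highest in rat 35, 10 more than 2-fold apart and a median range of 1.18 (log2). The shares of all genes were 45.4% highest in rat 35 and 42.5% more than 2-fold apart. More than 2-fold higher in rat 35 than in rat 19 were 7 of these 16 and 3 of the 17 further pericyte genes, against 11.7% of all genes. By this count and by median range (0.99 for further pericyte genes), the contrast between the groups among the 10 was not repeated in the further lists. Other measures kept its direction by a smaller margin. The median of rat 35 minus rat 19 was 0.83 for further pericyte and 0.73 for further contractile genes (log2). That of rat 35 minus rat 70 was 0.99 and 0.88. In rat 35, 15 of the 17 and 9 of the 16 were highest, against 45.4% of all genes. Highest in rat 35 were Flna, which encodes an actin cross-linking protein, at 27.0, 85.6 and 21.9 FPKM in rats 19, 35 and 70, Cald1 at 20.2, 65.8 and 17.0 and Crip1 at 16.7, 67.4 and 13.6. So were the smooth muscle genes Myl9 (28.6, 64.1 and 23.5), Tpm2 (18.9, 43.3 and 14.3) and Smtn (4.04, 11.2 and 4.22). Synpo2 was highest in rat 70 (1.57, 5.45 and 13.2), as was Csrp1 (112, 164 and 219). Lmod1 (3.36, 3.09 and 4.98) and Ppp1r14a (17.0, 18.3 and 21.7) also peaked in rat 70. Actg2 (1.72, 1.07 and 0.351) and Itga8 (4.73, 4.27 and 1.31) were highest in rat 19. Tpm1, the most abundant of the list after Csrp1, was at 49.0, 66.5 and 41.0. Of the regulators, Srf was even, at 13.6 FPKM in rat 19, 13.4 in rat 35 and 11.8 in rat 70, and Myocd was at 0.084, 0.129 and 0.112.

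Fibroblast, endothelial and skeletal muscle markers were read beside these values, because Pdgfrb, Anpep and Tagln are not restricted to mural cells. All 10 fibroblast markers at a mean FPKM of 1, of 12 listed, were highest in rat 35, against 45.4% of all genes, and the list summed to 327 FPKM in rat 19, 3228 in rat 35 and 309 in rat 70. Its collagen gene Col3a1 was at 81.7, 1086 and 68.3 FPKM and Lum at 36.4, 494 and 38.2, while Col1a2 was listed at 0 in every rat. Pdgfrb relative to Col1a1 (72.8, 754 and 80.6 FPKM) was 0.299 in rat 19, 0.135 in rat 35 and 0.228 in rat 70, lowest in rat 35. The part of fibroblast RNA in the Pdgfrb and Anpep values was not tested. Skeletal muscle markers summed to 10.7, 6.71 and 9.79 FPKM in rats 19, 35 and 70, with Ckm listed at 0 in all rats. Their order differed by gene, since Acta1 was lowest in rat 35 (6.35, 0.423 and 4.25), Tnnt3 highest there as Des was (1.90, 3.50 and 0.736) and Tnnc2 highest in rat 70 (1.28, 2.26 and 2.90). Their part in the Des values was not tested. Blood cell markers were highest in rat 35 for 4 of 4 genes and summed to 27.6, 224 and 37.6 FPKM in rats 19, 35 and 70. Among them the hemoglobin gene Hba1 had 19.1, 84.8 and 26.0 FPKM, and the myeloid genes S100a9 and S100a8 had 0.609, 77.4 and 2.83 and 1.36, 39.2 and 1.32. The part of myeloid RNA in the Anpep values was not tested.

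Of 10 listed endothelial markers, Pecam1 was not analysed here, and the other 9 were all highest in rat 35, against 45.4% of all genes. More than 2-fold apart were 8 of the 9, against 42.5% of all genes. The tight junction gene Cldn5 was at 80.3 FPKM in rat 19, 131 in rat 35 and 63.7 in rat 70. Relative to Cldn5, Myh11 was 0.112, 0.107 and 0.108 in rats 19, 35 and 70 and Acta2 was 0.257, 0.282 and 0.296. These contractile genes thus moved with it within 1.15-fold. The contractile gene Tagln did not follow Cldn5, being highest in rat 19 (78.1, 67.9 and 27.8 FPKM). Tagln, Cnn1, Vtn and Des were not divided by Cldn5. Pdgfrb relative to Cldn5 was 0.271 in rat 19, 0.778 in rat 35 and 0.289 in rat 70, and Anpep was 0.070, 0.353 and 0.111. Rgs5 was 0.756, 1.05 and 0.494.

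The choice of the endothelial gene changed this picture. Tie1, which encodes an endothelial receptor, was at 16.6 FPKM in rat 19, 50.7 in rat 35 and 7.32 in rat 70. Tek was at 15.6, 31.1 and 7.59 and Egfl7 at 22.7, 49.4 and 15.4. Relative to Tie1, Myh11 was 0.545, 0.276 and 0.937 in rats 19, 35 and 70, a 3.39-fold range. Acta2 relative to Tie1 was 1.25, 0.730 and 2.57, a 3.52-fold range. Pdgfrb relative to Tie1 was 1.31 in rat 19, 2.01 in rat 35 and 2.52 in rat 70, and rat 35 was no longer the highest. Relative to Tek, Pdgfrb was 1.39, 3.28 and 2.43. Cldn5, the most abundant gene of its list, was taken as the denominator after the values were seen. Its highest minus lowest difference was 1.03 (log2), against a median of 1.62 over the 9 endothelial markers. These ratios describe proportions within a library only.

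**Figure D3:**
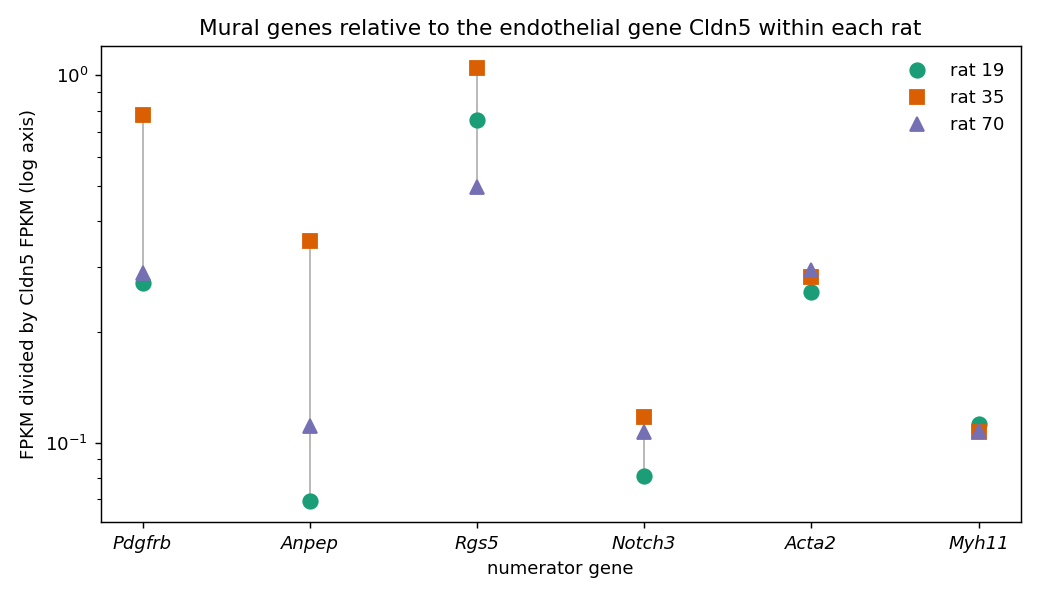
FPKM of 6 mural genes divided by that of the endothelial gene Cldn5 in the same rat, on a log axis, for rats 19 (circles), 35 (squares) and 70 (triangles). Myh11 (0.107 to 0.112) and Acta2 (0.257 to 0.296) hold nearly 1 value, whereas Pdgfrb and Anpep are highest in rat 35. Tagln, Cnn1, Vtn and Des were not divided by Cldn5 and are not shown.

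**Figure D4:**
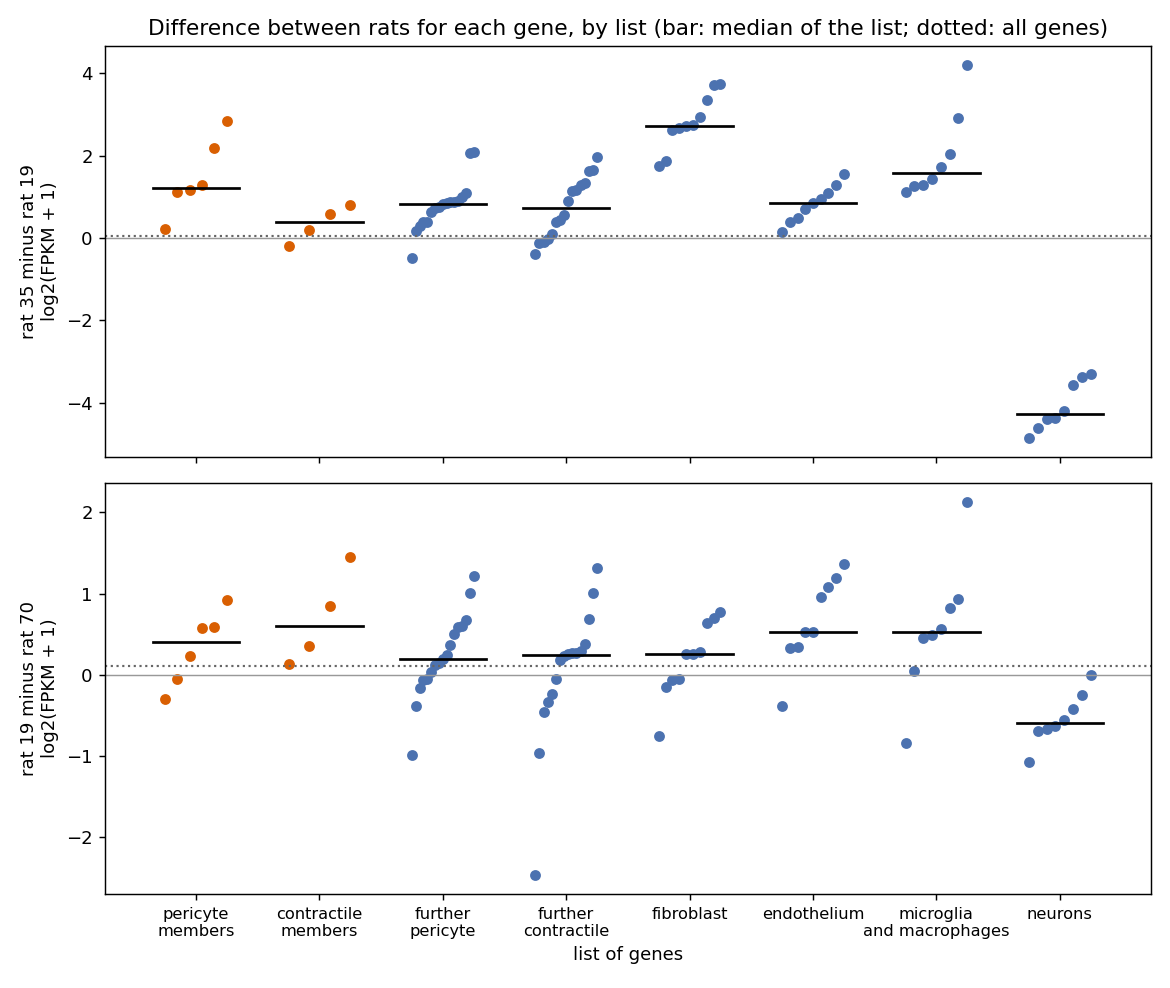
Difference in log2(FPKM + 1) of rat 35 minus rat 19 (top) and of rat 19 minus rat 70 (bottom), 1 point per gene averaging at least 1 FPKM, by list, with the median of each list as a bar and that of all genes as a dotted line (0.05 top, 0.11 bottom). In the top panel the median is 1.22 for the 6 pericyte members and 0.38 for the 4 contractile members. It is 0.83 for the further pericyte genes and 0.73 for the further contractile genes. For the fibroblast markers it is 2.72 and for the neuronal markers -4.28, and points of neighbouring lists overlap.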

How the data were processed

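FPKM values of 30957 Ensembl genes in 3 libraries of rat motor cortex, 1 per animal, were used as the authors deposited them. Per the labels' design text, FPKM came from a Perl script of the authors, run on normalized fragment numbers per gene. The method of normalization is not given there. The submitters' processing notes list HISAT2 2.0.4, StringTie 1.3.0 and the build Rnor 6.0, with no role for any of them, and strandedness is not stated. Any assignment of shared fragments between overlapping or similar genes could change Tagln and Acta2.

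The FPKM that 1 fragment is worth on 1000 bp was read from short genes whose length is their span: 78.8% to 81.7% of those under 0.5 (FPKM times kb) were whole fragments within 0.01. Gene lengths were the shortest up to 20000 bp giving whole fragments within 0.005 in all rats. A check on simulated data counted a length as recovered when the true length was a whole multiple of it. Fragment numbers too low by a whole factor would therefore pass that check. The 14134 genes averaging at least 1 FPKM served as background. Symbols on several rows were read from the row with the highest mean. Numbers were computed with Python 3.11.15, numpy 2.4.6, pandas 2.3.3 and scipy 1.17.1. The 10 genes and all lists were chosen with earlier results of these data known. Named were all 10 genes, in each further list the 3 most abundant and the 2 with the largest SD, the other PDGF and Notch genes, and the 5 nearest profiles to Pdgfrb, Rgs5 and Acta2. Other genes of these lists, and the gene pairs of the ratios, were named after their values were seen. No control group was analysed here, and replicates were taken as separate animals from their numbers. Alternatives were a pseudocount of 0.1, median-of-ratios scaling, a common sum of 1000000 per library, other FPKM minima, leaving out each rat, and moving genes between the groups.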

Additional observations from a re-analysis of the deposited data

How the results depend on the processing

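With a pseudocount of 0.1, rescaling to a sum of 1000000 or median-of-ratios scaling, none of the group results moved by more than its SD or changed sign, and Anpep and Pdgfrb stayed first and second by range. The number of genes more than 2-fold apart was 8, 7 and 6 under these settings, for which the share of all genes was not computed. Cnn1 alone moved, to a range of 1.90 with the smaller pseudocount. Rescaling to a common sum raised the median of all genes by 0.80, 0.85 and 0.96 in rats 19, 35 and 70 (log2). The share of all genes more than 2-fold apart was 40.9% among those averaging at least 5 FPKM and 32.8% over all detected genes.

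Leaving out each rat in turn gave 1 to 7 genes more than 2-fold apart, a highest minus lowest deviation of 0.40 to 1.98 for pericyte and 0.38 to 0.99 for contractile genes, a place by range of 2 to 8 for Pdgfrb and 1 to 7 for Anpep, and a Pdgfrb range minus the median of the others of -0.35 to 1.37. Highest in rat 35 were 9 to 10 genes. The shares of all genes with a rat left out were not computed for these counts. The smallest spread of the pericyte genes, of Pdgfrb and of Anpep came without rat 35, as did the count of 1, and the smallest spread of the contractile genes came without rat 70. The deviation of rat 19 changed sign for pericyte genes without rat 35 (0.20, against -0.61 without rat 70) and for contractile genes without rat 70 (-0.19, against 0.30 without rat 35).

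The level of pericyte minus contractile genes, averaged over rats, ran from -0.30 to 0.064 on leaving out a rat. It was 1.06 with Des and 1.05 with Notch3 among the contractile genes (rats 19 and 70 at 0.92 and 0.69 in both), -0.58 without Pdgfrb (rat 35 at -0.12), and 0.47 with means in place of medians (rat 70 at 0.34). In alternatives chosen after seeing the data it was 0.087 without Anpep (0.36, -0.12 and 0.024 in rats 19, 35 and 70), -0.69 without Cnn1 (rat 35 at -0.24) and 0.57 without Tagln (rats 19 and 70 at 0.25 and 0.37), and rat 35 was at -0.33 without Pdgfrb and Anpep. The contractile deviation of rat 19 was -0.076 on adding Des or Notch3 and without Cnn1 or Tagln. The cause was not tested. No paired analysis was possible because there is 1 group. Depth limits Cnn1, whose 11 fragments in rat 70 allow 5.49 to 19.7 by counting error.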
